A study of Mus musculus with 6 samples.

Results

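The genes described here are 10 genes of the chondroitin sulfate and tenascin matrix, chosen by symbol from the deposited table of 25755 genes, and all 10 were found in it. The comparison was between sham surgery (mice 1, 2 and 3) and optic nerve crush, ON-CR (mice 4, 5 and 6). All 6 mice had the genotype NF1flox/flox;hGFAP-Cre and an age given as 3 months in the labels, and values below follow the order of these mouse numbers. Both groups carried the same alleles, in which Cre recombinase under the human GFAP promoter removes Nf1 from neuroglial progenitors and the neurons and glia that arise from them, so there was no group here without the deletion. Each library was labelled as 1 mouse, and RNA was sequenced from whole nerves in bulk. The values are counts per gene that the authors divided by a factor for each library, called normalized counts below.

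Chondroitin sulfate proteoglycans are core proteins that carry long sulfated sugar chains. In the central nervous system the main family is that of the lecticans, aggrecan, brevican, neurocan and versican, which bind hyaluronan at one end and tenascins at the other, with link proteins holding the hyaluronan bond. This lattice fills the space around glia, nodes of Ranvier and neurons, and after injury its chondroitin sulfate is known as a barrier to growing axons. Astrocytes and cells of the oligodendrocyte lineage make most of it in white matter.

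Of the 10 genes, 0 were higher and 0 were lower after ON-CR at an adjusted p at or under 0.05 by limma. Over the whole table, 2.10% of genes passed this threshold, 0.971% as higher and 1.13% as lower. At an unadjusted p under 0.05, which 15.6% of all genes reached, there were 3 of the 10, the core protein genes Cspg5, Bcan and Ncan. Their directions differed. Cspg5 had a higher mean after ON-CR, and Bcan and Ncan lower means. The 3 ON-CR values of Cspg5 lay above all sham values, as they did for 10.5% of all genes, and those of Bcan lay below all sham values, as they did for 11.0%. In the other 8 genes the groups overlapped. The share of the 10 genes with groups apart was thus close to that of all genes, 21.6% in one direction or the other. The median log2 fold change was 0.25 over the 10 genes and 0.03 over all genes. The former takes in the fitted values of Acan and Has2, which were near the limit of detection and are given no direction below.

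**Figure D1:**
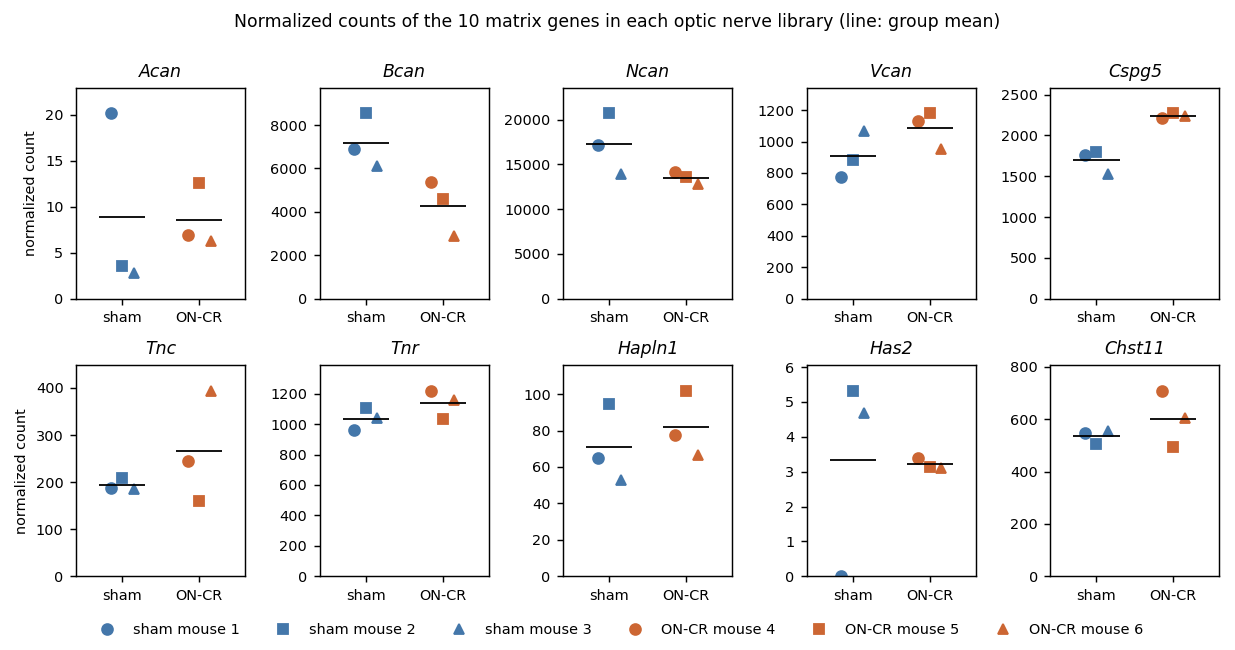
Normalized counts (vertical axis, from 0, with its own range for each gene) of the 10 genes in the 3 sham and 3 ON-CR libraries, 1 point for each mouse and a line at each group mean. The groups separate for Cspg5, with ON-CR above sham, and for Bcan, with ON-CR below sham, and overlap for the other 8 genes.

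Libraries held 17414091 to 23621006 estimated reads on genes, obtained by dividing each value by the value of 1 read in its library, and the deepest ON-CR library had fewer than the shallowest sham library. The labelled tissue was matched by its markers, with Mbp, of compact myelin, at 369255 to 1296440 normalized counts and Gfap, of astrocytes, at 99186 to 202957. Bpifa1, a marker of airway epithelium, was at 7568 normalized counts for sham mouse 3, and at 4579 and 5894 for ON-CR mice 5 and 6, against 0 to 22.3 in the other 3 libraries. Within groups, the 6 pairs of libraries differed by more than counting noise (chi-square over degrees of freedom 16.5 to 47.2). Sex-linked genes stood apart too. Xist was at 2.14 to 30.9 normalized counts in the sham libraries and at 2708 to 6357 in the ON-CR libraries, and Y-linked Ddx3y was at 1291 to 1645 in sham libraries, 976 in ON-CR mouse 4 and 4.19 and 0 in ON-CR mice 5 and 6. The library labelled ON-CR mouse 4 thus held both transcripts. Sex and surgery therefore cannot be told apart for any gene here. With 3 mice against 3, an exact permutation test on a single gene can give no p below 0.1.

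Neurocan and brevican transcripts dominated the set. Levels of different genes were compared as normalized counts per kilobase of annotated exon. This length takes in all annotated exons of a gene, whichever transcript was expressed, and the order of the genes depends on it. Ncan, which encodes neurocan, was highest in sham nerves at 2394 ± 473 (SD, n = 3), followed by Bcan, which encodes brevican, at 1765 ± 305, and the ranges of these 2 genes overlapped. Cspg5 came next at 169 ± 14.7, then Chst11 at 97.1 ± 4.82, Tnr at 80.5 ± 5.50, Vcan at 62.7 ± 10.4 and Tnc at 25.0 ± 1.64 (all SD, n = 3). Cspg5, Chst11 and Tnr did not overlap one another in sham nerves, and the ranges of Tnr, 74.7 to 85.7, and of Vcan, 53.4 to 73.9, came close without overlapping. Hapln1 followed at 11.98 ± 3.68, and Acan and Has2 were at 1.18 ± 1.31 and 0.787 ± 0.686 (SD, n = 3), which their spread did not separate. After ON-CR the order of the means was unchanged over the 10 genes, but the ranges of Ncan, at 1873 ± 91.8, and Bcan, at 1056 ± 311 (SD, n = 3), no longer overlapped. In ON-CR nerves the ranges of Chst11 and Tnr, and of Tnr and Vcan, overlapped per kilobase. Before division by exon length, the ranges of Ncan and Bcan were apart in both groups.

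Bcan, on chromosome 3 of GRCm38 from 87987531 to 88000230, encodes brevican, the shortest lectican, which is abundant in adult white matter and around nodes of Ranvier. Its normalized counts were 6883, 8536 and 6105 in sham nerves and 5388, 4582 and 2908 in crushed nerves. All ON-CR values lay below all sham values, and that of mouse 6 was the lowest. The fold change was 0.585, with a 95% interval of 0.422 to 0.812 and an adjusted p of 0.102 by limma. The adjusted p ran from 0.0537 to 0.381 over the 14 other settings tried, so the threshold was not passed in any of them, and leaving out ON-CR mouse 6 gave a log2 value of -0.52.

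Ncan, on chromosome 8 from 70093085 to 70120873, encodes neurocan, a lectican made by astrocytes and neurons that is prominent in development and in glial scars. Its normalized counts were 17114, 20678 and 13876 in sham nerves and 14090, 13571 and 12778 in crushed nerves. Only ON-CR mouse 4 reached into the sham range, above sham mouse 3. The fold change was 0.792 with a 95% interval of 0.631 to 0.994 (adjusted p = 0.309 by limma). Without any one mouse, its log2 fold change lay between -0.48 and -0.19.

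Vcan, on chromosome 13 from 89655312 to 89742509, encodes versican, the largest lectican, which is made by oligodendrocyte precursors and by fibroblasts. It had 773, 879 and 1069 normalized counts in sham nerves and 1129, 1178 and 953 in crushed nerves. The sham mouse with the highest value overlapped ON-CR mouse 6. This gave a fold change of 1.20, with an interval of 0.958 to 1.51 (adjusted p = 0.422 by limma).

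Acan, on chromosome 7 from 79053483 to 79115099, encodes aggrecan, the lectican of cartilage and of the nets around neurons. It was close to the limit of detection, with 20.2, 3.54 and 2.82 normalized counts in sham nerves, from 19, 4 and 3 estimated reads. In crushed nerves it had 6.98, 12.6 and 6.23, from 7, 12 and 6 estimated reads. The mice with the highest values, sham mouse 1 and ON-CR mouse 5, were also those with the highest summed level of 7 neuronal markers, 4263 and 8810 normalized counts, against 1315 to 2597 in the other 4 mice. Of these neuronal markers 0 of 7 were called, and Slc17a7 was at 0 in sham mouse 1. Of 8 cartilage markers 0 were called, and their summed level was 560 to 655 in sham and 711 to 997 in ON-CR libraries. The part of neurons and cartilage in the values of Acan was not tested. Its 95% interval, a fold of 0.424 to 3.91, covers changes of either sign, so no direction is given (adjusted p = 0.859 by limma). The few reads and the spread between mice both bear on it, and leaving out sham mouse 1 gave a log2 value of 1.15.

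The make-up of the lectican transcripts was described per kilobase. Bcan made up 41.0%, 41.7% and 42.9% of the lectican total in sham nerves and 39.4%, 36.4% and 28.0% in crushed nerves. The sham shares lay within 2 percentage points of each other and above all ON-CR shares, which spread widely. Ncan made up 57.6%, 57.1% and 55.0% in the sham libraries and 58.2%, 60.9% and 69.4% in the ON-CR libraries. Vcan made up 1.54% ± 0.497 in sham and 2.51% ± 0.166 in crushed nerves (SD, n = 3 each), and Acan was under 0.1% in every library. The shares depend on the exon lengths used. Without division by length, Vcan made up 2.92% to 5.08% in sham and 5.48% to 6.09% in ON-CR libraries. The total itself was 4128, 5036 and 3505 normalized counts per kilobase in sham nerves and 3363, 3097 and 2558 in crushed nerves, with no overlap. These shares and totals restate the values of the 4 genes and were not tested.

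**Figure D2:**
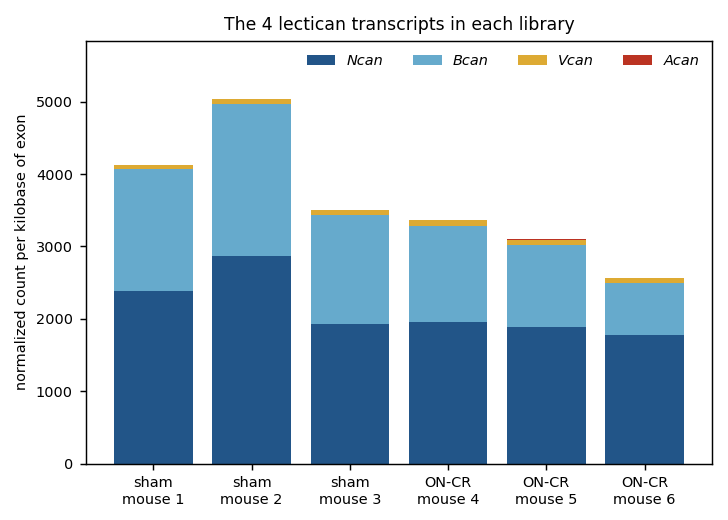
Stacked bars of normalized counts per kilobase of annotated exon for Ncan, Bcan, Vcan and Acan in each of the 6 libraries. The totals were 3505 to 5036 in sham and 2558 to 3363 in ON-CR libraries, with Bcan at 28.0% of the total in ON-CR mouse 6, and Acan is too low to be seen.

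Cspg5, on chromosome 9 from 110243783 to 110262576, encodes neuroglycan C, a membrane-spanning chondroitin sulfate proteoglycan of neurons and glia that is no lectican. It had the smallest p of the 10 genes. Its normalized counts were 1765, 1801 and 1528 in sham nerves and 2211, 2270 and 2241 in crushed nerves. All ON-CR values lay above all sham values and close together, at 2240 ± 29.6 against 1698 ± 148 (SD, n = 3 each). The fold change was 1.32, with a 95% interval of 1.12 to 1.56 and an adjusted p of 0.0972 by limma. Scaling each library to the same total moved the median log2 fold change of all genes from 0.03 to 0.15 and the value of Cspg5 from 0.40 to 0.53, and this was the only one of 14 other settings in which it passed, with an adjusted p of 0.0229 by limma. Relative to the median of all genes, its value was thus nearly the same under both scalings.

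The tenascins are large extracellular glycoproteins that join the lecticans into a network. Tnr, on chromosome 1 from 159523769 to 159931729, encodes tenascin-R, made by oligodendrocytes and some neurons and found at nodes of Ranvier. It was the steadiest of the 10 genes, with 962, 1103 and 1042 normalized counts in sham nerves and 1218, 1037 and 1159 in crushed nerves. The groups overlapped, and the fold change was 1.10 with an interval of 0.915 to 1.32 (adjusted p = 0.640 by limma). Gm38039, on the other strand, shares 443 exon bases with Tnr, and the library kit named in the labels does not mark strand, so reads from the shared bases cannot be told apart.

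Tnc, on chromosome 4 from 63959785 to 64047015, encodes tenascin-C, which is low in the adult nerve and is known to be induced in wounds and gliomas. It had 188, 209 and 186 normalized counts in sham nerves and 244, 161 and 394 in crushed nerves. ON-CR mouse 6 was far above all others, and ON-CR mouse 5 was below all sham mice. Its fold change was 1.28, with an interval of 0.834 to 1.97 (adjusted p = 0.588 by limma). It rested on 1 mouse, since leaving out ON-CR mouse 6 gave a log2 value of 0.03, and leaving out ON-CR mouse 5 gave 0.67. ON-CR mouse 6 also held far more B cell and plasma cell RNA, with a summed level of 5 markers of 14303 normalized counts against 92.1 to 500 in the other 5 libraries. None of these 5 markers was called (0 of 5). The same library was also the highest in Gfap, at 202957 normalized counts, and in the summed level of dividing-cell markers, at 1068. The part of B cells, plasma cells, dividing cells and astrocytes in the value of Tnc was not tested. On the other strand, 8030451A03Rik shares 176 exon bases with Tnc.

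Hapln1, on chromosome 13 from 89539796 to 89611652, encodes the link protein that fastens lecticans to hyaluronan in cartilage and in nets around neurons. It had 64.7, 94.7 and 52.6 normalized counts in sham nerves and 77.8, 101.7 and 66.5 in crushed nerves, with overlap. Its fold change was 1.17, with an interval of 0.750 to 1.84 (adjusted p = 0.761 by limma). Has2, on chromosome 15 from 56665627 to 56694539, encodes an enzyme that makes the hyaluronan chain itself. It was barely detected, with 0, 5.31 and 4.70 normalized counts in sham nerves and 3.38, 3.15 and 3.12 in crushed nerves. In reads this was at most 6 in sham and about 3 in each ON-CR library, so no fold is given (adjusted p = 0.884 by limma). Has2os, on the other strand, shares 182 exon bases with it.

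Chst11, on chromosome 10 from 82985498 to 83195900, encodes the main chondroitin 4-O-sulfotransferase, which adds sulfate to the sugar chains in the Golgi apparatus. It had 546, 506 and 557 normalized counts in sham nerves and 708, 496 and 604 in crushed nerves. ON-CR mouse 5 lay below all sham mice, and mice 4 and 6 lay above them. This gave a fold change of 1.11 with an interval of 0.881 to 1.40 (adjusted p = 0.683 by limma).

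Markers of the cell types in the nerve were compared between the same groups, and in bulk RNA fewer cells of a type and less RNA for each cell cannot be told apart. Of 8 markers of mature oligodendrocytes, 7 were called lower and 0 higher, and their summed level was 1272450 to 1823120 normalized counts in sham and 617136 to 729909 in ON-CR libraries. Of 8 astrocyte markers 0 were called, with a summed level of 214910 to 263118 in sham and 282471 to 312131 in ON-CR libraries, of which Gfap was the largest part. Without Gfap the other 7 markers summed to 115724 to 141125 in sham and 109174 to 126006 in ON-CR libraries. On the log2 scale 4 of the 7 had lower means, with all ON-CR values of Aldoc and Gjb6 below all sham values. The other 3 had higher means, with all ON-CR values of Aqp4 and Slc1a3 above all sham values. Sox6 and Lhfpl3 were called higher among 6 markers of oligodendrocyte precursors (2 of 6), whose sums were 5778 to 5862 and 5847 to 6720, while Pdgfra and Gpr17, not called, had fold changes of 0.820 and 0.835 with all ON-CR values below all sham values. Of 7 markers of microglia and macrophages 3 were called higher (Aif1, C1qa and Cd68), while P2ry12 and Tmem119, not called, had fold changes of 0.784 and 0.831. Of 5 markers of dividing cells 4 were called higher. No astrocyte, precursor or oligodendrocyte marker was at 0 in any library. The part of these cell types in the values of the 10 genes, and of the related genes below, was not tested.

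**Figure D3:**
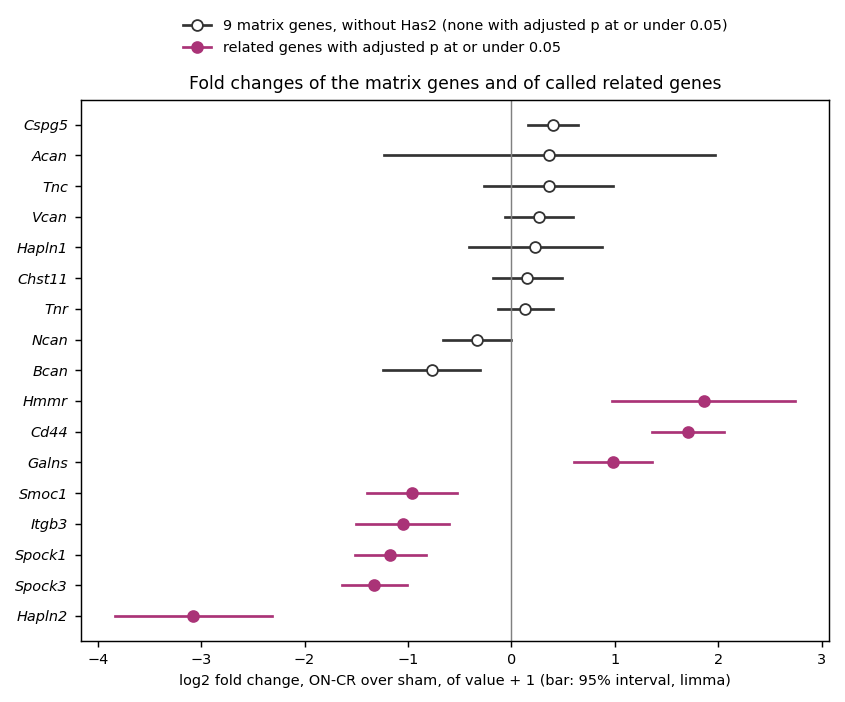
Log2 fold change of ON-CR over sham (horizontal axis, on values plus 1) with 95% intervals from limma, for 9 of the 10 genes (open points, without Has2, which was at the limit of detection) and the 8 related genes that passed an adjusted p at or under 0.05 (filled points). These 9 genes lie between -0.77 (Bcan) and 0.40 (Cspg5), and the related genes between -3.08 (Hapln2) and 1.86 (Hmmr).

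The surrounding pathway was described with 8 lists of related genes, 89 genes in all, of which 87 were in the table. Of these 87 genes, 3 were called higher and 5 lower, 9.2% against 2.10% of all genes. The lists were written with earlier results of these data known, so the comparison of these shares is no independent evidence. The counts called were 4 of 12 other core proteins, 1 of 5 other tenascins and link proteins, 1 of 13 hyaluronan genes, 1 of 8 lysosomal enzymes and 1 of 12 receptors. For chain synthesis, sulfation and proteases they were 0 of 13, 0 of 14 and 0 of 10.

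**Figure D4:**
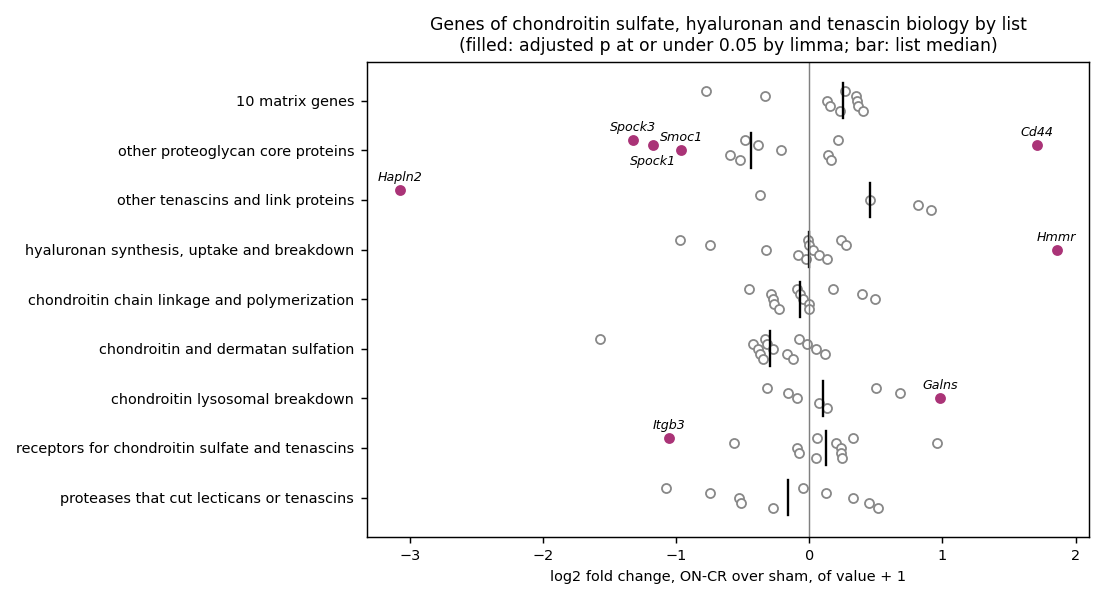
Log2 fold change of ON-CR over sham (horizontal axis, on values plus 1) for each gene of the 10 and of the 8 related lists, with a bar at each list median. Filled, named points passed an adjusted p at or under 0.05 by limma, and list medians run from -0.44 for other core proteins to 0.45 for other tenascins and link proteins. The latter median is the value of Hapln4, which exceeded its sham range for mouse 5 alone. Of the 5 genes in that list, 2 had a mean of at least 50, Tnxb at 0.82 (not called) and Hapln2 at -3.08 (called lower). Summed over that list, mean normalized counts went from 1156 (sham) down to 419 (ON-CR).

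Hapln2, the link protein of nodes of Ranvier known as Bral1, had the lowest fold change of the 87 genes and fell. Its normalized counts were 601, 1526 and 743 in sham nerves and 154, 91.2 and 78.9 in crushed nerves. The groups were far apart, with a fold change of 0.119 and an interval up to 0.201 (adjusted p = 0.00264 by limma). Of 8 markers of mature oligodendrocytes 7 were called lower, and the part of these cells in the value of Hapln2 was not tested. In the mouse genome each lectican gene has a link protein gene as its next protein-coding neighbour, a feature looked at after the values were seen. Hapln2 is 21.5 kilobases from Bcan on the same strand, Hapln1 is 43.7 kilobases from Vcan, Hapln4 is 2.22 kilobases from Ncan and Hapln3 ends 2 bases from Acan, these 3 on opposite strands. Bcan and Hapln2 both had ON-CR values below all sham values, with log2 fold changes of -0.77 and -3.08. The other pairs had overlapping groups in both genes, with 0.27 and 0.23 for Vcan and Hapln1, and -0.34 and 0.45 for Ncan and Hapln4. Acan, at 3 to 19 reads, had nearly equal group means and no direction is given for it beside Hapln3, whose value was -0.37. Hapln4, a link protein of nets around neurons, was at 8.31 to 14.1 normalized counts in 5 libraries and 61.9 in ON-CR mouse 5, the library with the highest neuronal markers.

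The sequences just before the starts of Bcan and Hapln2 are shown because these neighbours were the only lectican and link protein pair in which neither gene overlapped between groups. They are read 5′ to 3′ on the minus strand of GRCm38.p6 from the 150 bases before the RefSeq gene start. For Bcan all 150 bases, chr3:88000357-88000506, lie outside the GENCODE gene. For Hapln2 the last 72 bases lie inside the GENCODE gene and were left out, so 78 bases are shown, chr3:88027584-88027661. Capitals mark any match, on either strand, to one of 3 motifs. The TATA box was searched as TATAAA. The CCAAT box was searched as its 5 letters. The GC box was searched as GGGCGG, and no motif overlapped another here.
Bcan: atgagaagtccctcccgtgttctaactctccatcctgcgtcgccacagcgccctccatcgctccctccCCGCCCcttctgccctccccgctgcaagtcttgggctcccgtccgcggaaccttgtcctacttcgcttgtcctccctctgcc
Hapln2: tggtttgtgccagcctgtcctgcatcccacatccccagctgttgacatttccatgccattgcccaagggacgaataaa

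The Bcan window held 11 CpG dinucleotides and 1 GC box on the other strand, and 64.7% of its bases were G or C. The shorter window of Hapln2 held 1 CpG dinucleotide and none of the 3 motifs, and 52.6% of its bases were G or C. Among 32851 RefSeq promoter windows of 150 bases, 28.6% held a GC box, 24.5% a CCAAT box and 7.57% a TATA box, and the median share of G and C was 54.0%. These shares are for the full 150 bases before a RefSeq start and are no measure for the 78 bases of Hapln2, which lack those nearest that start. A match is only a description of these letters.

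Cd44 encodes a hyaluronan receptor of glia and immune cells that can itself carry chondroitin sulfate, and it rose. Its normalized counts were 890, 638 and 694 in sham nerves and 2237, 2182 and 2821 in crushed nerves. All crushed nerves lay far above all sham nerves, at 3.27 times the sham level (adjusted p = 0.000957 by limma), and the call held whichever mouse was left out. Hmmr, another hyaluronan-binding protein that also acts on the mitotic spindle, rose from 18.5 ± 5.02 to 72.6 ± 33.2 normalized counts (SD, n = 3 each, adjusted p = 0.0450 by limma). Its adjusted p was 0.234 without ON-CR mouse 6 and 0.101 to 0.149 without any one of the sham mice. Dividing-cell markers were higher beside it, with summed levels of 188 to 272 in sham and 592 to 1068 in ON-CR libraries. Other hyaluronan genes were not called, among them Tnfaip6, which transfers proteins onto hyaluronan, at 1445 ± 399 and 1129 ± 57.0 (SD, n = 3 each).

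The testicans, small proteoglycans that carry heparan and chondroitin sulfate, include 2 genes that fell. Spock1 had 1869, 2504 and 2105 normalized counts in sham nerves and 1089, 1001 and 787 in crushed nerves (fold change 0.444, adjusted p = 0.00535 by limma). Spock3 had 1749, 1650 and 1328 in sham nerves and 692, 621 and 566 in crushed nerves (fold change 0.399, adjusted p = 0.00219 by limma). Spock1 was at an adjusted p of 0.0518 by limma once ON-CR mouse 6 was left out. The third testican, Spock2, had overlapping groups at 842 to 1547 normalized counts. Smoc1, a matrix protein related to the testicans that was listed with them, fell from 1149 ± 245 to 589 ± 127 (SD, n = 3 each, adjusted p = 0.0372 by limma), and its adjusted p was 0.135 to 0.214 without sham mouse 2, sham mouse 3 or ON-CR mouse 6. Ptprz1, a receptor phosphatase whose secreted form is phosphacan, did not pass, at 3905 ± 245 and 4541 ± 327 (SD, n = 3 each, adjusted p = 0.368 by limma). Cspg4, the NG2 proteoglycan of oligodendrocyte precursors, had overlapping groups at 1028 to 1113 and 1068 to 1324.

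The enzymes that build the chains did not pass the test, and in the lists of linkage and polymerization and of sulfation the median log2 fold changes were -0.07 and -0.29. Fitted values were lower for 9 of 13 and 12 of 14 genes of these lists. In the sulfation list all ON-CR values lay below all sham values in 3 genes, against 11.0% of all genes, and above in 0, against 10.5%. Chsy3, a chondroitin polymerase, was at 42.5 ± 10.1 and 59.7 ± 8.57, and Dse, which turns chondroitin into dermatan sulfate, at 420 ± 54.5 and 314 ± 54.6 (SD, n = 3 each). Chsy3 had the largest change of its list among genes with a mean of at least 50, a cut that it only just passed. Over all related lists together, 25 of the 87 genes were at an unadjusted p under 0.05 by limma, against 15.6% of all genes. This too is no independent evidence, because the lists were written with earlier results of these data known. Galns, a lysosomal sulfatase that removes sulfate from chondroitin chains, rose from 133 ± 0.803 to 265 ± 32.2 (SD, n = 3 each), at 1.97 times the sham level (adjusted p = 0.0188 by limma). Leaving out any one mouse other than ON-CR mouse 5 gave an adjusted p of 0.0614 to 0.113. Lysosomal genes are also abundant in microglia, whose 7 markers summed to 11453 to 14331 in sham and 14436 to 22398 in ON-CR libraries, and the part of these cells was not tested.

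Among the receptors, Itgb3, an integrin subunit that pairs with the alpha v chain to bind tenascin-C and other matrix proteins, fell from 192 ± 17.5 to 92.3 ± 14.6 normalized counts (SD, n = 3 each), at 0.482 times the sham level (adjusted p = 0.0287 by limma). Leaving out any one of the sham mice or ON-CR mouse 6 gave an adjusted p of 0.0860 to 0.173. The receptor phosphatase Ptprs, which binds chondroitin sulfate on axons, had overlapping groups at 1442 to 1688 and 1608 to 1999. Sdc4, a heparan sulfate proteoglycan that acts as a co-receptor, was at 19612 ± 1254 and 23108 ± 1859 (SD, n = 3 each, adjusted p = 0.368 by limma). The protease list held 10 genes in the table, of which 6 had lower and 4 higher fitted values after ON-CR. All ON-CR values lay below all sham values in 3 of them, against 11.0% of all genes, and above in 2, against 10.5%. Adamts15, which cuts lecticans, was at 190, 205 and 197 in sham nerves and 134, 71.3 and 84.1 in crushed nerves, with an adjusted p of 0.0557 by limma. It passed in 2 of the 14 other settings, with 0.0189 without ON-CR mouse 4. The groups did not overlap, and the protease inhibitor Timp3 was at 11783 ± 1136 and 11372 ± 825 (SD, n = 3 each).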

How the data were processed

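RNA of optic nerves from 3 sham and 3 ON-CR mice was analysed, grouped by the sample titles. Read alignment and quantification were done by the authors in DRAGEN against mm10 with Ensembl annotation, followed by median normalization in Partek 10.0. The deposited values are thus a signal, each gene's estimated count over a factor of its library. Between 65.1% and 67.7% of values were whole reads within 0.01 of a read after division by the value of 1 read, so limma 3.58.1 in R 4.3.3 was used in place of the study's count model, on log2(value + 1) with an intensity trend in the variance prior and Benjamini-Hochberg correction across all 25755 genes. The pseudocount understates changes of low genes. The test was run on simulated data with the same spread for every gene, so that check could not cover the trend. The changes planted there were larger than those of the 10 genes, and only in genes with a mean of at least 50. Depth was 17414091 to 23621006 estimated reads, and a value of 2.66 to 3.18 corresponds to 3 reads. Positions, exon lengths and overlaps are from GENCODE M21 on GRCm38.

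The members and all gene lists were chosen with earlier results of these data known. Named were the 10 genes, the related genes that passed the threshold of 0.05, and in each list the gene with the highest mean normalized count and the one with the largest change at a mean of at least 50. Spock2, Cspg4, Ptprs, Hapln3 and Hapln4 were chosen after their values were seen. The alternatives were pseudocounts of 0.5 and 2, a filter at a mean of 10, upper-quartile and library total scaling, a robust fit, no trend, sample quality weights and leaving out each mouse. The result of 1 related gene is not reported here.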

Additional observations from a re-analysis of the deposited data

How the results depend on the processing

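The number of genes called over the whole table was 540. It was 7 without the mean-variance trend, and from 67 (without ON-CR mouse 6) to 854 (without ON-CR mouse 5) with each single mouse left out, including 123, 192 and 258 without sham mice 2, 1 and 3. Of the 10 genes, 1 was called higher with library total scaling (Cspg5), and 0 were called higher or lower in each of the other settings. Of the related genes, 3 were called higher. This count was 6 with library total scaling, 5 with sample quality weights, 0 without the trend and 1 to 4 when each mouse was left out. The count called lower was 5. It was 0 without the trend and 2 to 7 when each mouse was left out, with the lowest count without ON-CR mouse 6 and the highest without ON-CR mouse 4. Smoc1 also lost its call with library total scaling (adjusted p = 0.0715 by limma). The sign of the fitted value turned for 4 genes that were not called. At the limit of detection, where no direction is given, the fitted values ran from -0.089 to 1.147 for Acan and from -0.51 to 0.82 for Has2 on the log2 scale when each mouse was left out, and the same range was -0.27 to 0.14 for Slc26a2, a sulfate transporter, and -0.10 to 0.029 for Timp3. With library total scaling Slc26a2 was at 0.0031 and Timp3 at 0.079. The cause of these differences was not tested. No paired analysis was possible because the mice carry different numbers in the 2 groups. The 3 mice in each group limit what can be called, and the depth limits Acan and Has2. Acan and Has2 did not pass the filter at a mean of 10 and have no value there.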

Other observations

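The genes whose profile over the 6 mice was most like that of a matrix gene were sought among 14428 other genes with a mean of at least 50 normalized counts, by the root-mean-square distance of log2(value + 1) after each gene was centred on its own mean. For Bcan these were Adprhl2, Ilkap and Akr7a5, at distances of 0.07 to 0.09, against 0.49 for the spread of Bcan itself. Ncan was closest to Ror2, a Wnt receptor, Ethe1 and Lgi3, at 0.04 to 0.05 against 0.24. Cspg5 was closest to Lratd2, Cep164 and Dyrk2, at 0.05 against 0.22. Tnc was closest to Icam2, an adhesion molecule of endothelium and leukocytes, Clec4a2, a lectin receptor of myeloid cells, and Tsc22d1, at 0.08 to 0.10 against 0.42. With 6 mice and 14428 genes, profiles this close are a description of these libraries only.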
